A study of Mus musculus with 6 samples.

Results

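Cytotoxic T cells kill by fusing lytic granules with the membrane that faces a target cell, and perforin released from those granules forms pores through which granzymes enter. The account below covers 10 mouse genes of this process, grouped by role: the pore (Prf1), the small GTPases that mark granules for docking (Rab27a and Rab27b), synaptotagmin-like effectors of those GTPases (Sytl2 and Sytl3), the priming and fusion factors (Unc13d, Stx11 and Stxbp2), and the granule membrane and matrix (Lamp1 and Srgn). The genes were chosen by name and function, with earlier results of these data known. For each the array row annotated with that symbol alone was read, or the row with the highest mean where several exist, and each of the 10 had exactly 1 row. They were 10 of the 19938 genes that have such a row. All 10 passed the filter on dim rows and were among the 10021 genes tested, and each would also have passed it on its Runx3-/- values alone.

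The cells were splenic CD8+ T cells (CD8-TC) of individual Runx3-/- mice (3 arrays, KO1 to KO3) and Runx3 +/+ mice (WT, 3 arrays, WT1 to WT3), all labelled ICR males aged 6 weeks. Both groups were stimulated on anti-CD3 with anti-CD28 for 2 days and then grown in human IL-2 at 100 units per ml for 4 days, and total RNA was measured on Affymetrix mouse gene ST 1.0 arrays. Runx3 is a Runt-domain DNA-binding regulator that CD8-TC and NK cells express, and the question here is whether granule exocytosis genes differ in cells without it. The Runx3-/- cells alone were also sorted by flow cytometry, against CD11c+ dendritic cells at isolation and against CD4+CD8- cells after culture, so sorting and genotype cannot be told apart.

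Values are log2 expression, and array medians lay between 4.15 and 4.35. The Runx3 transcript itself stood at 8.91, 9.11 and 9.27 on the KO arrays, against 8.77, 8.26 and 9.16 on the WT arrays (difference 0.37, limma adjusted p = 0.521). Which stretch of Runx3 was disrupted was not given in the sources used here. The values therefore do not check the genotype labels, and arrays are called KO by label alone. WT1, labelled male, had Xist at 10.6 and the Y-linked Eif2s3y at 3.93, against 3.31 to 3.40 and 9.24 to 9.39 on the other arrays, and the main results are therefore also given without it. All 7 markers of CD8 T cells were bright, with array means of 11.02 to 11.33 (KO) and 10.92 to 11.14 (WT). Lists of markers of other cells had low array means, 3.51 to 3.81 (KO) and 3.49 to 3.69 (WT) for 10 dendritic cell genes, 3.44 to 3.54 (KO) and 3.49 to 3.53 (WT) for 6 macrophage genes, and 3.88 to 4.27 (KO) and 3.92 to 4.06 (WT) for 5 B cell genes. Single markers stood above them. Cd79b, a chain of the B cell receptor complex, was 4.64 to 5.21 on KO arrays and 5.53 to 6.12 on WT arrays (-0.93, adjusted p = 0.148), and the B cell adaptor Bank1 was 4.24 to 5.08 on KO arrays and 3.72 to 3.88 on WT arrays, a difference of 0.83 that was tested through KO1 and KO2 alone. Cd74, the MHC class II invariant chain, was 5.74 on KO1, against 3.49 to 4.24 on the other arrays. The part of these cells in the results below was not tested. Genes of G2/M phase averaged 7.20 on KO2, against 9.35 and 9.49 on the other KO arrays and 8.34 to 8.87 on the WT arrays. KO2 and WT2 lay at opposite ends of the first principal component, which held 49.6% of the variance. Scores on it were -0.84, -42.4 and -17.0 for KO1 to KO3 and 12.6, 40.3 and 7.31 for WT1 to WT3. The component therefore also separated the genotypes. KO2 had the highest array median (4.35) and WT2 the lowest (4.15). Along this component, genotype, the KO2 and WT2 arrays and the array median cannot be told apart.

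The 10 genes differed from one another in the direction and size of their difference. Sytl3 fell 14.1-fold and was the only one of them past an adjusted p of 0.05, a threshold that 0.629% of all tested genes passed (0.359% lower and 0.269% higher). The study's methods call a gene at a p of 0.05 and 1.5-fold with signal above background on at least 1 array. That threshold was applied here with limma's unadjusted p and with the filter on dim rows in place of the background signal, and by it Sytl3 and Rab27b were lower and none of the 10 was higher, beside 8.3% of all tested genes (4.33% lower and 3.97% higher). The differences of 7 of the 10 were smaller than 1.5-fold, beside 88.7% of all tested genes, and for 6 the 95% interval stayed within 2-fold either way, beside 76.8%. The median difference was -0.10 on the log2 scale over the 10 genes and -0.01 over all tested genes. Without regard to sign, the median was 0.33 over the 10 genes and 0.21 over all tested genes. An unadjusted limma p under 0.05 was reached by 4 of the 10 (Sytl3, Rab27b, Stx11 and Srgn), beside 14.1% of all tested genes. The arrays of the 2 genotypes did not overlap for 5 of the 10, with 3 lower and 2 higher in KO, beside 22.4% of all tested genes (10.9% lower and 11.6% higher).

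**Figure D1:**
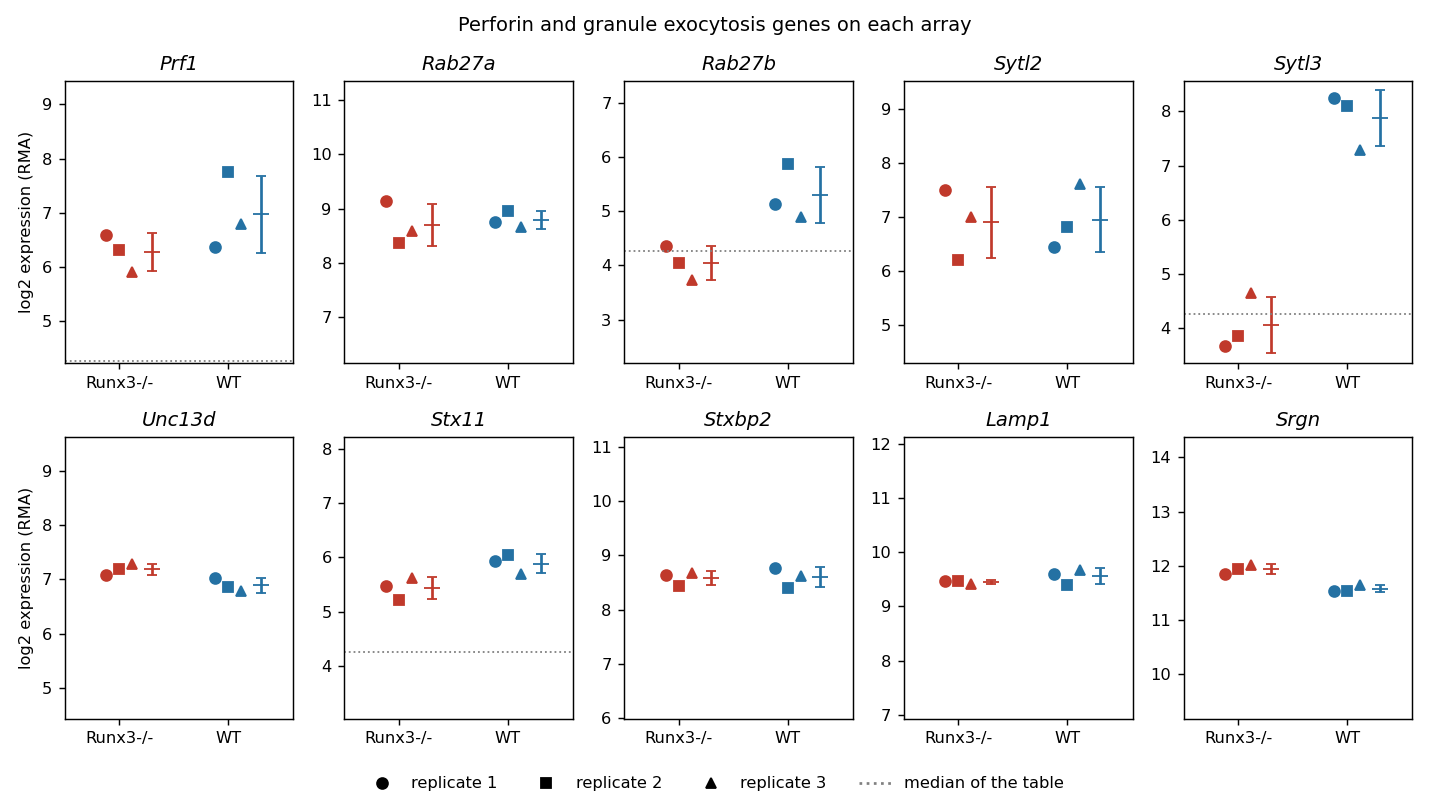
Log2 expression (RMA) of each of the 10 genes on each array, Runx3-/- in red and WT in blue, symbols for replicates and bars for mean ± SD (n = 3 each). Each panel spans the same range of log2 units, and the dotted line is the median of the whole table, 4.26. Sytl3 and Rab27b lie lower on every KO array than on any WT array, while Lamp1 and Stxbp2 overlap.

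Sytl3 encodes synaptotagmin-like protein Slp3, which binds GTP-loaded Rab27 and membrane lipids and has been described in cytotoxic T cells as a link between granules and the kinesin motor that carries them outward. Its log2 expression was 3.68, 3.86 and 4.64 on the KO arrays, against 8.24, 8.11 and 7.29 on the WT arrays. KO1 and KO2 lay below the median of the whole table, and the highest KO array was 2.64 log2 units under the lowest WT array. The means were 4.06 ± 0.51 in KO and 7.88 ± 0.52 in WT (SD, n = 3 each), a difference of -3.82 (SE 0.34, limma, adjusted p = 0.00837) that ranked 5th in size and 11th in p among the 10021 genes. RMA values level off near background, so a difference that ends near the table median can be understated. Without WT1 the difference was -3.64 (adjusted p = 0.0441), and over each array left out in turn it lay between -4.11 and -3.63 and stayed past the threshold. The adjusted threshold was not passed with the replicate number as a block (adjusted p = 0.131) or in an unmoderated linear model (adjusted p = 0.222). In bulk RNA, fewer cells that express a gene and less of its RNA per cell cannot be told apart, here and for the other genes.

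Among protein-coding genes in the order of RefSeq's GRCm38, the nearest gene downstream of Sytl3 with a tested row was Ezr, which encodes the membrane-cytoskeleton linker ezrin. Ezr differed by 0.10 (adjusted p = 0.773), and the other 5 of the 3 nearest coding genes on each side had no row of their own. The RefSeq promoter window of Sytl3, from 250 bases before to 50 bases after a start site, is printed because Sytl3 carries the largest difference of the 10 and because RUNX proteins bind a short motif that can be looked for in it. It lies at chr17:6658809-6659108 (GRCm38.p6, plus strand) around a start site other than the outermost one of the gene. Capitals mark the match to the RUNX letters TGTGGT, whose first base lies 113 bases before the start site.
Sytl3: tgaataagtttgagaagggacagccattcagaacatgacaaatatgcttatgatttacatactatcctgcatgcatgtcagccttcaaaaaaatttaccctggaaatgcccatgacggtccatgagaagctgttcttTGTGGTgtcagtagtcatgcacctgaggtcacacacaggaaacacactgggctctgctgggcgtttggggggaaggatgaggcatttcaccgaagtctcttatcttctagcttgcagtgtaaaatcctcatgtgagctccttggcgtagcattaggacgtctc

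Besides TGTGGT itself, the search took in its variant TGTGGC and the pair with C at the third base, namely TGCGGT along with TGCGGC, each on both strands with overlaps allowed. Of the 10 genes, 7 matched the promoter table by symbol, with 9 windows, and 6 of these windows held at least 1 match. At least 1 match was present in 45.2% of all 32851 windows of the same length, and TGTGGT on either strand in 16.8% of them. TGTGGT was found in 5 of the 9 windows, those of Sytl3 and Prf1 and 1 window each of Rab27a, Lamp1 and Srgn, genes with differences of -3.82, -0.69, -0.09, -0.10 and 0.35. A match is a run of letters and not a measured binding site. The window of Prf1, added for the pore gene after the values were seen, is chr10:61297586-61297885 (GRCm38.p6, plus strand). Like that of Sytl3, it lies around a start site other than the outermost one of the gene. Its match is on the opposite strand, with the capitals starting 130 bases before the start site.
Prf1: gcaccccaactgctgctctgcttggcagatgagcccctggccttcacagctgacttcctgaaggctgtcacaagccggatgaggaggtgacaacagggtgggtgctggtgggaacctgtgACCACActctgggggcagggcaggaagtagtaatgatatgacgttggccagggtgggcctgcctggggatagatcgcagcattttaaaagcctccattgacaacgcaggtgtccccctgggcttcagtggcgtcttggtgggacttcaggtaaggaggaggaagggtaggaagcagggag

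Sytl2 encodes Slp2, which docks Rab27-bearing granules at the plasma membrane of cytotoxic T cells. In contrast to Sytl3, it stood at 7.51, 6.21 and 7.0 on the KO arrays, against 6.44, 6.81 and 7.61 on the WT arrays. The groups overlapped over most of their range, and both spread over more than 1 log2 unit. The difference was -0.05 (95% interval -1.01 to 0.91, adjusted p = 0.972), an interval that includes a halving and nearly a doubling. KO2, the array with the low G2/M genes, had the lowest value, and the sign turned without KO2 (0.30). The remaining synaptotagmin-like genes came from the pathway list, and of these Sytl1 differed by 0.06 (adjusted p = 0.885), while Sytl4 and Sytl5 lay below the table median on every array and were not tested.

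Rab27b is the near relative of Rab27a that serves secretion in platelets, mast cells and exocrine glands. Its log2 expression was 4.36, 4.04 and 3.73 on the KO arrays, against 5.13, 5.87 and 4.89 on the WT arrays. All KO arrays were lower than all WT arrays, the gap between the groups was 0.53 log2 units, and KO2 and KO3 lay below the table median. Means of 4.04 ± 0.31 in KO and 5.30 ± 0.51 in WT (SD, n = 3 each) gave a difference of -1.25 (SE 0.29, 95% interval -1.93 to -0.58), a 2.38-fold lower level. It passed the study's threshold but not the adjustment over all genes (adjusted p = 0.137). Without WT1 the difference was -1.33 (adjusted p = 0.277), and without WT2, the array with the highest value, it was -0.97. It was also -0.97 without WT2 and KO2 together (adjusted p = 0.188), where Sytl3 was -3.60 (adjusted p = 0.048).

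The platelet and mast cell markers Pf4, Itga2b, Gp9, Cpa3 and Mcpt4 lay below the table median on every array, so that 1 of the 6 genes of that list, Kit, reached it. Kit was lower in KO, at 4.29, 4.97 and 4.22 against 5.73, 6.26 and 6.36 in WT (difference -1.62, adjusted p = 0.0594). With Kit included, the list averaged 3.72 to 4.04 on KO arrays and 4.08 to 4.195 on WT arrays. The other genes of the list had means of 3.49 to 3.98 in KO and 3.56 to 3.95 in WT, and the genotypes overlapped for each of them. The study lists Kit among Runx3-regulated genes with lower expression in IL-2-activated Runx3-/- CD8-TC, NK cells or both. For Rab27b it reports lower expression without Runx3 in both activated cell types. Its expression calls for activated CD8-TC were made on the arrays read here, so they are not independent of these values. The part of Kit or of that marker list in the level of Rab27b was not tested. Next to Rab27b on chromosome 18, the nearest coding gene on each side was dim on every array, and the nearest tested one without a clone name, Stard6, differed by 0.20 (adjusted p = 0.615).

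Rab27a, the GTPase that tethers lytic granules to the plasma membrane and whose loss in humans causes an immunodeficiency with pale hair, read 9.13, 8.37 and 8.60 on the KO arrays, against 8.76, 8.96 and 8.66 on the WT arrays. The highest and the lowest of the 6 values were both KO arrays. The difference was -0.09 (95% interval -0.61 to 0.43, adjusted p = 0.879), and it was 0.07 without KO2. The difference of Rab27b and that of Rab27a were not compared with each other in a test.

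Perforin itself was 6.60, 6.32 and 5.91 on the KO arrays, against 6.37, 7.75 and 6.80 on the WT arrays. WT2 stood well above every other array, and WT1 lay among the KO arrays. With means of 6.28 ± 0.35 in KO and 6.97 ± 0.71 in WT (SD, n = 3 each), the difference of Prf1 was -0.69 (SE 0.36, 95% interval -1.55 to 0.17, adjusted p = 0.432), 1.62-fold in size and past neither threshold. One array decided much of its size. Without WT2 the difference was -0.30 (adjusted p = 0.727), and without WT1 it was -0.99 (adjusted p = 0.403), which is past the study's threshold.

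NK cells also make perforin. Of 6 NK cell markers only Klrb1c and Klre1 reached the table median on any array, while Ncr1, the receptor that defines NK cells, lay between 3.30 and 3.51 on all 6 arrays. Klrb1c was 3.74 to 3.77 on KO arrays and 4.34 to 5.94 on WT arrays, with WT1 the lowest of them, and it passed the filter on dim rows through the WT arrays alone, so its difference of -1.56 is a description. The list averaged 3.56 to 3.72 on KO arrays and 3.82 to 4.19 on WT arrays. Of the helper T cell markers, Cd4 and Zbtb7b were higher in KO at the study's threshold, with Cd4 at 6.70 to 6.95 on KO arrays and 5.29 to 6.496 on WT arrays. Foxp3 went the other way, at 5.53, 5.33 and 6.70 in KO against 6.31, 6.70 and 5.52 in WT (-0.32, limma adjusted p = 0.764). Cd40lg lay below the table median on every array. The study counts Cd4 and Zbtb7b among Runx3 targets earlier reported to change when Runx3 is lost in developing CD8-TC. The 4 helper genes averaged 5.35 to 5.89 on KO arrays and 5.14 to 5.43 on WT arrays, and the part of either list in the level of Prf1 was not tested.

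**Figure D2:**
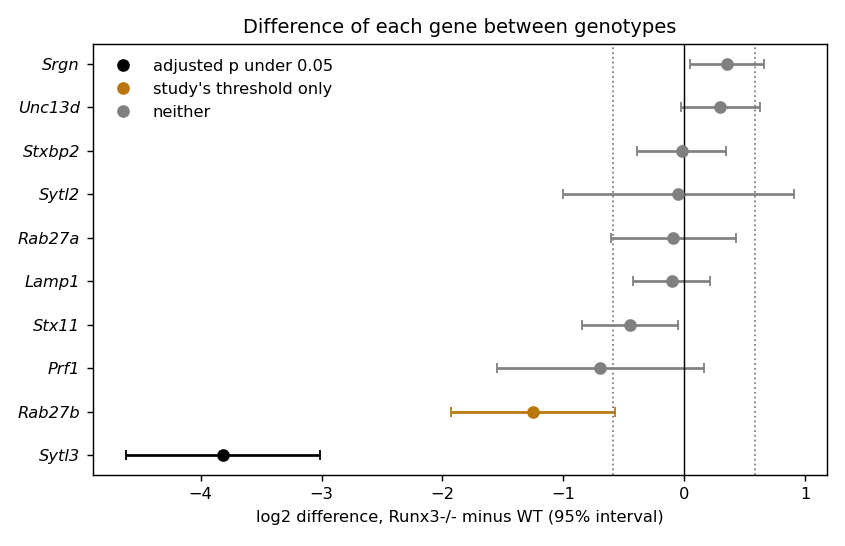
Log2 difference of each gene, Runx3-/- minus WT, with its 95% interval from limma (n = 3 arrays each). Dotted lines mark a 1.5-fold change. Sytl3 at -3.82 is past the adjusted threshold, Rab27b at -1.25 is past the study's threshold alone, and the interval of Sytl2 is the widest, from -1.01 to 0.91.

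Of the factors that prime and fuse the docked granule, none passed either threshold. Unc13d encodes the priming factor Munc13-4, Stx11 a syntaxin on the plasma membrane, and Stxbp2 the Munc18 protein that holds this syntaxin, and loss of any of them in humans causes familial hemophagocytic lymphohistiocytosis. Stx11 was 5.48, 5.22 and 5.61 on the KO arrays, against 5.94, 6.04 and 5.68 on the WT arrays. The groups were separated by 0.07 log2 units, and the difference of -0.45 (95% interval -0.84 to -0.05) did not pass either threshold (adjusted p = 0.308). Without KO2 and WT2, the arrays with the lowest and the highest value, it was -0.26.

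Unc13d stood at 7.09, 7.19 and 7.29 on the KO arrays, against 7.03, 6.86 and 6.78 on the WT arrays. Every KO array was above every WT array, by 0.058 log2 units at the nearest. Its difference was 0.30 (95% interval -0.03 to 0.63, adjusted p = 0.387). Stxbp2 read 8.64, 8.43 and 8.67 on the KO arrays, against 8.77, 8.40 and 8.62 on the WT arrays, with the KO values inside the WT range. The difference of Stxbp2 was -0.02 (95% interval -0.39 to 0.34, adjusted p = 0.966), which bounds it at less than 1.5-fold in either direction.

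Lamp1 is the lysosomal membrane protein CD107a, whose arrival at the cell surface is used to count degranulating cells. It was 9.47, 9.47 and 9.42 on the KO arrays, against 9.60, 9.39 and 9.67 on the WT arrays. The KO arrays lay close together and inside the WT range, with a difference of -0.10 (95% interval -0.42 to 0.22, adjusted p = 0.756). Srgn encodes serglycin, the proteoglycan core on which granzymes and perforin are stored. It was 11.84, 11.94 and 12.03 on the KO arrays, against 11.54, 11.55 and 11.66 on the WT arrays. All KO arrays were above all WT arrays, with a gap of 0.185 log2 units between the groups, and the difference of 0.35 (95% interval 0.05 to 0.66) did not pass the adjustment over all genes (adjusted p = 0.296) or a change of 1.5-fold.

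Across the 6 arrays, Rab27b ran with Prf1 (Pearson r = 0.87) and with Sytl3 (r = 0.86) and against Srgn (r = -0.95). These correlations are descriptions over 6 arrays that share 2 genotypes, and they carry no test. The 3 tested genes whose arrays most resembled Prf1 were Mogs (r = 0.99), the glucosidase that starts trimming of N-glycans, Tnfsf11 (r = 0.99), the cytokine RANKL, and Gemin4 (r = 0.99), a part of the SMN complex. They were picked over the same arrays, so they share its peak on WT2 by choice. Those nearest to Sytl3 were Cercam (r = 0.997), Bbs2 (r = 0.99) and Itgae (r = 0.99), the integrin chain CD103, with differences of -1.20, -0.42 and -3.46. Cercam and Bbs2 lay under the table median on every KO array and passed the filter through WT alone. Those nearest to Rab27b were Hgh1, Tvp23b and Flvcr1, with differences of -0.71, -0.45 and -0.43. The likeness that chose these genes fixes the direction of their differences, which carry no test.

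**Figure D3:**
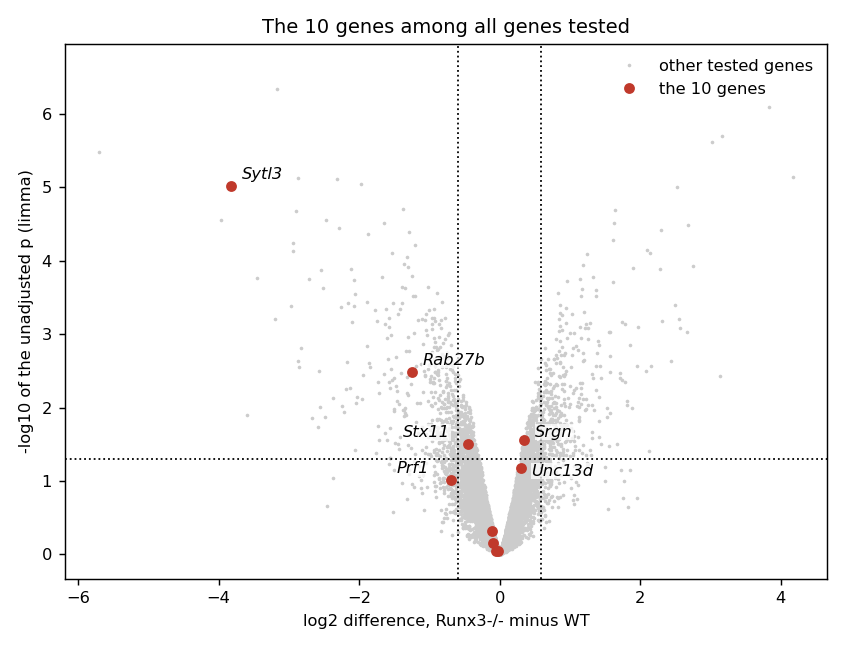
Log2 difference, Runx3-/- minus WT, against the negative log10 of the unadjusted p (limma) for the 10021 tested genes in grey and the 10 genes in red. Dotted lines mark the p and the 1.5-fold change of the study's threshold. Sytl3 lies far out at -3.82 and Rab27b beyond both lines at -1.25, and the other 8 genes lie inside at least 1 line.

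The wider pathway was read from a list of 180 other genes of granule biogenesis, transport, docking, fusion and calcium entry. They were chosen by function, likewise with earlier results known. Of the 180 genes, 172 had a row and 137 were tested. None passed an adjusted p of 0.05 in limma, 12 (8.76%) had an unadjusted p under 0.05, beside 14.1% of all tested genes, and at the study's threshold 4 were lower and 2 higher (4.38%), beside 8.3% of all tested genes. Differences under 1.5-fold made up 92%, beside 88.7% of all tested genes, and the median difference was 0.00. The groups did not overlap for 28 of the 137 (20.4%), beside 22.4%, and by functional group this share ran from 6.67% of 15 lysosomal and granule membrane genes to 38.7% of 31 SNARE genes and 40% of 5 priming genes. These shares lie on both sides of the background.

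Among Rab effectors and granule Rab GTPases 0 of 10 passed either threshold, with differences of -0.52 to 0.11. Among 31 SNARE proteins and regulators, the proteins that pull membranes together, Vti1b of late endosomes was lower (-0.62, adjusted p = 0.221) and the vesicle SNARE Vamp1 was higher (0.86, adjusted p = 0.255) at the study's threshold. Vamp8, another vesicle SNARE and named after its values were seen, was 8.01, 7.32 and 7.92 on the KO arrays, against 8.21, 8.04 and 8.15 on the WT arrays, without overlap but past neither threshold (-0.38, adjusted p = 0.443). Of its relatives, likewise named afterwards, Vamp4 did not overlap (-0.25), while Vamp3 (-0.11) and Vamp7 (-0.20) did. None of these passed a threshold, and Vamp2 had no row of its own. Of 5 tested priming factors and calcium sensors, Esyt2, a tether between the endoplasmic reticulum and the plasma membrane, was higher (1.03, adjusted p = 0.292). It was 9.61, 10.3 and 10.2 on the KO arrays, against 9.34, 8.22 and 9.48 on the WT arrays, with WT2 far below the rest.

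Of 31 genes for biogenesis of lysosome-related organelles, Bloc1s2, a subunit of the BLOC-1 and BORC complexes, was lower at the study's threshold (-0.79, adjusted p = 0.212). Myo1e, a class I myosin, was the only one of 32 transport and synapse genes past it (-0.61). It reached the table median on WT2 alone, so it was tested through the group in which it is high, and 3 of the 4 lower calls stand without it. Kif5b, the kinesin heavy chain to which Slp3 has been linked, and Klc1, a kinesin light chain, both named after their values were seen, differed by 0.06 (adjusted p = 0.864) and 0.05 (adjusted p = 0.911). The 13 calcium entry genes had a median difference of 0.22 and a range of -0.85 to 1.26, and 76.9% of them differed by less than 1.5-fold. The widest difference was that of Itpr2, a receptor for inositol trisphosphate, at 8.44, 9.46 and 8.83 on the KO arrays, against 8.17, 6.33 and 8.44 on the WT arrays (1.26, adjusted p = 0.372), with WT2 far below the rest. Plcg1, the phospholipase that makes inositol trisphosphate, differed by 0.66 (adjusted p = 0.357), and WT2 was again the lowest array (8.12, against 8.82 to 9.66). Mcoln2, an endolysosomal cation channel, was lower at the study's threshold, with 6.63, 6.46 and 6.52 on the KO arrays, against 7.83, 7.21 and 7.12 on the WT arrays (-0.85, adjusted p = 0.161). None of 15 lysosomal and granule membrane or matrix genes passed either threshold, with a median of -0.16 and a range of -1.15 to 0.11. At its low end lay Npc1, the lysosomal cholesterol transporter (-1.15, adjusted p = 0.413), and Cd68, a lysosomal membrane glycoprotein (-0.82, adjusted p = 0.361). Npc1 on WT2 (6.60) lay inside its KO range of 6.31 to 7.41, against 8.80 on WT1 and 8.25 on WT3. Cd68 on WT2 (5.41) also lay inside its KO range of 4.62 to 5.79. Itpr2, Plcg1, Npc1 and Cd68 were named after their values were seen.

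**Figure D4:**
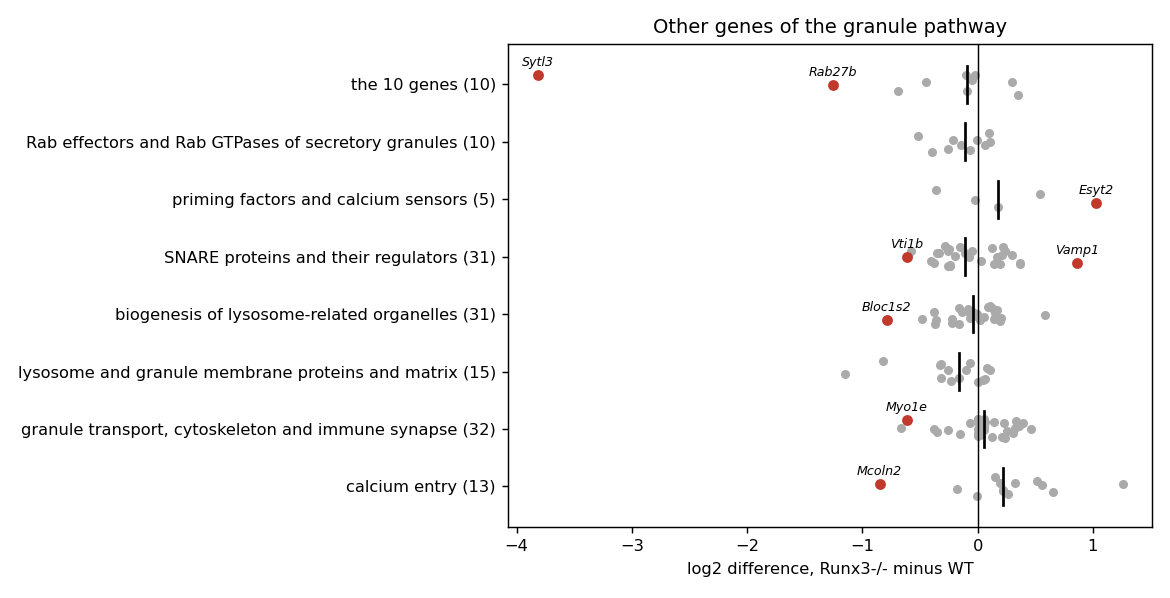
Log2 difference, Runx3-/- minus WT, of each tested gene in the 10-gene set and in 7 functional groups of the wider pathway; parentheses give how many were tested. Red points are past the study's threshold, black bars are group medians, and vertical scatter is for display. Sytl3 at -3.82 lies outside the range of all 137 pathway genes, which runs from -1.15 to 1.26.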

How the data were processed

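Each of 6 CD8-TC cultures had its own Affymetrix mouse gene ST 1.0 array. The authors summarised and normalised probe signals in Partek Genomics Suite (RMA, with correction for GC content) and deposited log2 expression values array by array. Versions were not given in the sources used here, and detection calls were not used. Of 35399 rows, 21789 had exactly 1 symbol. A gene with several rows was represented by its brightest on average, and entered the test if any array reached the table median (4.26). Genotypes were compared with limma 3.58.1 in R 4.3.3 (lmFit and eBayes, two-sided, no covariate) with Benjamini-Hochberg adjustment over 10021 genes. Differences are KO minus WT, and SEs and 95% intervals are moderated ones. The fit was checked on simulated data. The number of arrays limits the precision, and replicates are individual mice with their cultures.

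The 10 genes, the pathway list and the marker lists were chosen with earlier results of these data known. All 10 genes were named, as were pathway genes past a threshold (at most 6 per group) and the 3 genes of highest Pearson r with Prf1, Sytl3 and Rab27b, leaving out predicted genes and clone names. Sytl1, Sytl4, Sytl5, Vamp3, Vamp4, Vamp7, Vamp8, Kif5b, Klc1, Itpr2, Plcg1, Npc1, Cd68, single marker genes and the neighbours of Sytl3 and Rab27b were added after their values were seen. Promoter windows came from RefSeq (GRCm38.p6). Alternatives were the filter on dim rows, median and quantile normalization, the mean of a gene's rows, a replicate block, trend and robust priors, an unmoderated model, array weights, and arrays left out. Figures were drawn with matplotlib 3.10.9.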

Additional observations from a re-analysis of the deposited data

How the results depend on the processing

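Sytl3 was lower and past the study's threshold under all 16 alternatives and past the adjusted threshold in 14 of them (adjusted p 0.00256 to 0.222). Rab27b was lower and past the study's threshold in all 16, and past the adjusted one with array weights only (adjusted p 0.019 to 0.418). Of the 10 genes, 1 passed the adjusted threshold in the fit described above, 0 with the replicate block, 0 with the unmoderated linear model and 2 with array weights, where Rab27b joined Sytl3. All genes past that threshold numbered 63, and 36 with no filter on dim rows, where more genes are tested, 1 with the replicate block (1001 at an unadjusted p under 0.05), 0 with the unmoderated model (1173 at an unadjusted p under 0.05) and 547 with array weights. Leaving out 1 array at a time gave 9 (without KO3) to 67 (without KO1), with 17 without WT1, 26 without WT2, 11 without WT3 and 27 without KO2. At the study's threshold 832 genes were called, 508 in the unmoderated model, and 651 (without WT2) to 1258 (without KO1) with 1 array left out. The study's own count for these cells, from its own test and background filter, was smaller than each of these. The labels give replicate numbers but do not say whether same-numbered arrays were paired. Deviations of same-numbered arrays from their group means had r of -0.131, -0.369 and -0.133, and none was closest to its own number. With 3 arrays per genotype, these values cannot decide whether the arrays were paired. With the replicate block, the difference of Sytl3 was -3.82 (limma adjusted p = 0.131).

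The sign turned for differences near 0. Sytl2 was 0.27 with array weights, 0.23 without WT2 and KO2 together, and -0.35 to 0.30 with 1 array left out. Rab27a was 0.16 without WT2 and KO2 together and -0.31 to 0.074 with 1 array left out, and Stxbp2 was -0.12 to 0.065 with 1 array left out. Prf1, Stx11, Unc13d, Srgn and Lamp1 kept their direction in all 16. Apart from the replicate block, the unmoderated model and array weights, for which the cause was not tested, no alternative changed which of the 10 genes passed the adjusted threshold. The RMA values give no detection level, so a value under the table median is not shown to be absence of the transcript.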
